A study of Mus musculus with 45 samples.

Results

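Acta2, Actg2, Tagln, Cnn1, Myl9, Tpm1, Tpm2 and Cryab encode actin, actin-binding and chaperone proteins of contractile and smooth muscle cells. The set was chosen by gene symbol, and the gene that led to the choice, Acta2, was selected on its wide spread between clones in earlier results of the same arrays. It covers 8 genes with 18 probes, and 6 of the 8 genes, among 9666 genes of the array, had a probe that passed the filter on dim signal. Actg2, detected on 1 of 45 arrays, and Cnn1, detected on none, did not pass and entered no test. The spread of Acta2 between clones is therefore given below as a description, without a test.

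The cells were feeder-free mouse ESCs of strain 129/Sv//Ev grown in serum and LIF, and embryoid bodies (EBs) formed from them without LIF and collected after 2 days (d2) or 3 days (d3). Smad2/3 DKO cells lack both Smad2 and Smad3, Smad2 KO cells lack Smad2, Smad3 KO cells lack Smad3, and WT cells carry both genes. Each of the 12 groups of a stage and a genotype held 4 Illumina MouseWG-6 v2.0 arrays, apart from 3 in each ESC knockout group, and each array of a group was a separate clone or line. Every Smad2/3 DKO clone was made from the Smad2 KO clone KT15 by deleting the first exon of Smad3 with a Cas9 nickase, every Smad3 KO clone was made from the WT line CCE, and the 4 WT lines were CCE, CCB, CCH and CCF. The p-values below therefore measure the spread between clones and lines of a genotype. About 5000 EBs were pooled for the Smad2/3 DKO arrays (2500 for one d2 array), 2500 at d2 and 5000 at d3 for Smad2 KO, and 1250 for Smad3 KO and WT, so that the number of EBs and the genotype cannot be told apart where Smad2/3 DKO or Smad2 KO EBs are set against Smad3 KO or WT EBs. Smad3 KO and WT EBs had the same number at both days, as had Smad2/3 DKO and Smad2 KO EBs at d3.

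The arrays had median signals of 111 to 243 and between 11338 and 14256 detected probes out of 45281. Smad3 was detected on all 9 Smad2 KO and all 12 WT arrays whose labels were not in doubt (7.67 to 10.08 log2 units) and on none of the 10 Smad2/3 DKO and 10 Smad3 KO arrays (4.83 to 5.62). On 4 libraries the label did not match Smad3 detection or the stage side of the leading principal component. Smad3 detection on the remaining arrays therefore matches their labels by definition. The 4 libraries were d2 Smad2 KO replicate 4 (clone KT17), d3 Smad2 KO replicate 4 (KT12), ESC Smad3 KO replicate 4 (CCE.2B7) and d2 Smad2/3 DKO replicate 4 (KT15.2D5), called the doubted libraries below. They were kept as labelled, and results that rest on them are also given without them.

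Smooth muscle alpha-actin, the product of Acta2, polymerizes into the thin filaments on which myosin pulls, and Actg2 encodes the gamma-actin of visceral smooth muscle. Tropomyosins (Tpm1, Tpm2) lie along the filament, transgelin (Tagln, also SM22) and calponin (Cnn1) bind it, and Myl9 encodes the regulatory light chain through which phosphorylation switches smooth muscle and non-muscle myosin. Many of these genes are known targets of serum response factor (SRF), which binds CArG boxes and works with actin-sensing cofactors of the MRTF family, and TGF-beta signals raise several of them in fibroblasts. In culture they mark smooth muscle cells and myofibroblasts, but flattened, spreading and epithelial cells use them too. Cryab encodes alphaB-crystallin, a small heat shock protein of lens and muscle that protects cytoskeletal filaments. In bulk RNA, fewer cells of a type and less RNA per cell cannot be told apart.

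Promoter windows of 300 bases, from 250 bases before to 50 bases after a start site, were available in the RefSeq table (GRCm38.p6) for 5 of the 8 genes, and the 3 below are shown because they hold matches to elements known from contractile genes. Capitals mark CArG boxes, matched strictly or with 1 of the 6 inner bases other than A or T, and the sequence GGAATG, which with its complement CATTCC is the MCAT element bound by TEAD factors. The Acta2 window lies at chr19:34255324-34255623 on the minus strand, the Myl9 window at chr2:156775214-156775513 on the plus strand and the Tpm1 window at chr9:67049164-67049463 on the minus strand.
Acta2: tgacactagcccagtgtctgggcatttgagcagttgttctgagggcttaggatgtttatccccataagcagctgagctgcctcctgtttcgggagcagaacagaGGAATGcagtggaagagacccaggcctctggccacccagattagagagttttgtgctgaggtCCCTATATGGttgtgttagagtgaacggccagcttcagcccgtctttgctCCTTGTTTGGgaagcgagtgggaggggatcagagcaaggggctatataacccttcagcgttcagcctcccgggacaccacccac
Myl9: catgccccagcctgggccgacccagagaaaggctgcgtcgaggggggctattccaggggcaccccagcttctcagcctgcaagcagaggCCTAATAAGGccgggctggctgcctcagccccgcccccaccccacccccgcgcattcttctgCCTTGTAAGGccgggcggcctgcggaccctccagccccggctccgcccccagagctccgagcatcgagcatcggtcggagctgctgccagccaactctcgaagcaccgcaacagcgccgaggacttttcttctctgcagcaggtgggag
Tpm1: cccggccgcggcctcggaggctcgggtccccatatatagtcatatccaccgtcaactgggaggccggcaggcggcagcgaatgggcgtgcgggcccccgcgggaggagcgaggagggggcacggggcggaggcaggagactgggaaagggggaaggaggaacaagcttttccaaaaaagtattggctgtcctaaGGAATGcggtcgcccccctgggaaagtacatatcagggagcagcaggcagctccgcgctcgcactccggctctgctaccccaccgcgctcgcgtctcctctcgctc

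A strict CArG box, searched on both strands, was found in the Myl9 window (CCTAATAAGG) and in no other member window, and 1.63% of all 32851 windows held one. Allowing 1 inner mismatch, the Acta2 window held 2 matches (CCCTATATGG and CCTTGTTTGG) and Myl9 gained a second one (CCTTGTAAGG), while 9.98% of all windows held at least 1. GGAATG or CATTCC was present in the Acta2 and Tpm1 windows and in 14.7% of all windows. The windows of Cnn1 and Tpm2 held none of the 3 patterns. These matches are descriptions of letters, and binding at them was not tested.

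Acta2 had the widest spread of the members. In ESCs its signal was 10.79, 6.01 and 6.71 log2 units in the Smad2/3 DKO clones KT15.2G9, KT15.1F6 and KT15.2D5, of which only KT15.2G9 was detected. It was 13.53, 9.68 and 13.94 in the Smad2 KO clones KT12, KT15 and KT17, and 5.51, 7.39 and 8.80 in the Smad3 KO clones CCE.1H1, CCE.2E7 and CCE.2B7 (doubted). The WT lines CCE, CCB, CCH and CCF stood at 9.22, 10.45, 13.36 and 11.27. The 3 Smad3 KO arrays, the doubted one included, lay below all 4 WT arrays, while Smad2/3 DKO and Smad2 KO arrays overlapped WT. The share of all genes whose groups do not overlap was not counted. Within WT ESCs the highest line had 17.7 times the signal of the lowest, and the corresponding range was 27.5-fold in Smad2/3 DKO, 19.1-fold in Smad2 KO and 9.81-fold in Smad3 KO ESCs.

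Against WT ESCs none of the 6 tested members was called by limma at an adjusted p under 0.05 in any knockout. Comparisons of knockout ESCs with each other are not given here. The changes of Acta2 were -3.24 ± 1.38 log2 units in Smad2/3 DKO (SE, 3 against 4 arrays, adjusted p = 1), 1.31 ± 1.38 in Smad2 KO (adjusted p = 0.84) and -3.84 ± 1.38 in Smad3 KO ESCs (adjusted p = 0.776). Without the doubted CCE.2B7 array the Smad3 KO value was -4.62 (adjusted p = 0.547). Of all 9666 genes, 0% were called in each of the Smad2/3 DKO, the Smad2 KO and the Smad3 KO comparison. At an unadjusted p under 0.05, Acta2 was the member that passed in the Smad2/3 DKO and in the Smad3 KO comparison, and no member passed in the Smad2 KO comparison, against 322, 764 and 602 of all genes in the Smad2/3 DKO, Smad2 KO and Smad3 KO comparison. The remaining members differed from WT ESCs by at most 1.42 log2 units (Cryab in Smad2 KO, adjusted p = 0.69), with Tagln at 1.27 ± 0.91 in Smad2 KO (0.756) and Myl9 at -1.04 ± 0.64 in Smad2/3 DKO (1).

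**Figure D1:**
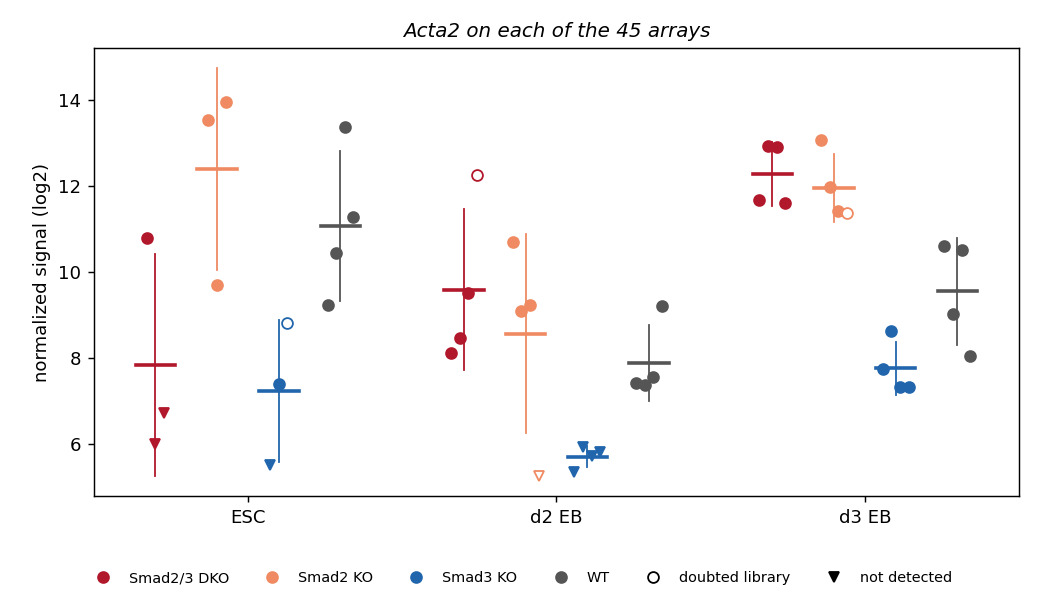
Normalized Acta2 signal (log2) of each of the 45 arrays, by stage and genotype. Points are arrays, open circles the doubted libraries, triangles arrays on which the probe was not detected, horizontal bars group means and vertical bars 1 SD. The 4 Smad2/3 DKO arrays and the 4 Smad2 KO arrays of d3 lie above all 4 d3 WT arrays, which reach 10.60, and the ESC groups span more than the d3 groups do.

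In d3 EBs, Acta2 and Cryab rose in both genotypes without Smad2. Acta2 stood at 11.67, 12.92, 12.90 and 11.61 in the Smad2/3 DKO clones KT15.2G9, KT15.2D5, KT15.1F6 and KT15.1F11, and at 13.05, 11.98, 11.42 and 11.36 (doubted) in the Smad2 KO clones KT17, KT15, KT11 and KT12. Smad3 KO clones CCE.2E7, CCE.2B7, CCE.1H1 and CCE.2H2 had lower values of 7.75, 8.63, 7.32 and 7.33, and the WT lines CCE, CCB, CCH and CCF had 10.60, 9.03, 10.50 and 8.04. All 4 arrays of both genotypes without Smad2 were thus above every WT array, and the Smad3 KO arrays overlapped WT. Acta2 rose in Smad2/3 DKO against WT by 2.73 ± 0.55 log2 units (4 against 4 arrays, adjusted p = 0.00368) and in Smad2 KO against WT by 2.41 ± 0.55 (adjusted p = 0.0339), while its Smad3 KO value was -1.79 ± 0.55 (adjusted p = 0.101, but 0.034 with median scaling and 0.00375 with array weights). With all 45 arrays in 1 fit the Acta2 call was lost in both (adjusted p = 0.0685 in Smad2/3 DKO and 0.261 in Smad2 KO). In Smad2 KO it was also lost with no filter on dim probes (0.0974) and without either of 2 WT lines (CCB 0.0818, CCF 0.106) or without clone KT17 (0.0934) or KT15 (0.0626).

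Cryab, the small heat shock protein gene, had a d3 signal of 9.37, 10.09, 9.76 and 8.76 in Smad2/3 DKO and 9.36, 8.38, 7.91 and 7.44 (doubted) in Smad2 KO, in the clone order above, and it was detected on all 8 arrays. In Smad3 KO it lay at 5.49 to 5.81 and in WT at 5.41 to 5.79, and no array of these 2 genotypes detected it. There was no overlap between the arrays without Smad2, the doubted KT12 array included, and those with it. How many of all genes separate in this way was not counted, here or in the other comparisons with WT. Cryab rose in Smad2/3 DKO against WT by 3.89 ± 0.34 (adjusted p = 3.55e-06) and in Smad2 KO by 2.67 ± 0.34 (adjusted p = 0.000889), whereas the Smad3 KO value was 0.05 ± 0.34 (adjusted p = 0.954). Set against the lowest detectable signal of each WT array, the rise was at least 7.02-fold in Smad2/3 DKO and at least 3.01-fold in Smad2 KO. Both calls held in all 10 alternatives of the processing and with any of the 8 arrays left out, with changes of 2.32 to 4.13 in Smad2/3 DKO and 1.39 to 2.94 in Smad2 KO. The smallest values came from signal without background correction.

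Acta2 and Cryab were the 2 of 6 members that rose in Smad2/3 DKO d3 EBs, where 9.5% of all genes rose, and the same 2 of 6 rose in Smad2 KO, where 2.31% of all genes did. None was called in Smad3 KO, where 1.31% of genes were called in either direction, and 2 members passed at an unadjusted p under 0.05 (1888 of all genes). Median changes of the 6 members were 1.40, 0.77 and -0.76 log2 units in Smad2/3 DKO, Smad2 KO and Smad3 KO, against -0.03, -0.03 and 0.01 over all genes. The 3 comparisons share the 4 WT arrays. Without the doubted libraries 4 of 6 members rose in Smad2/3 DKO (12.4% of genes), 3 of 6 in Smad2 KO (2.74%), and 1 of 6, Tpm1, fell in Smad3 KO (3.57%).

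**Figure D2:**
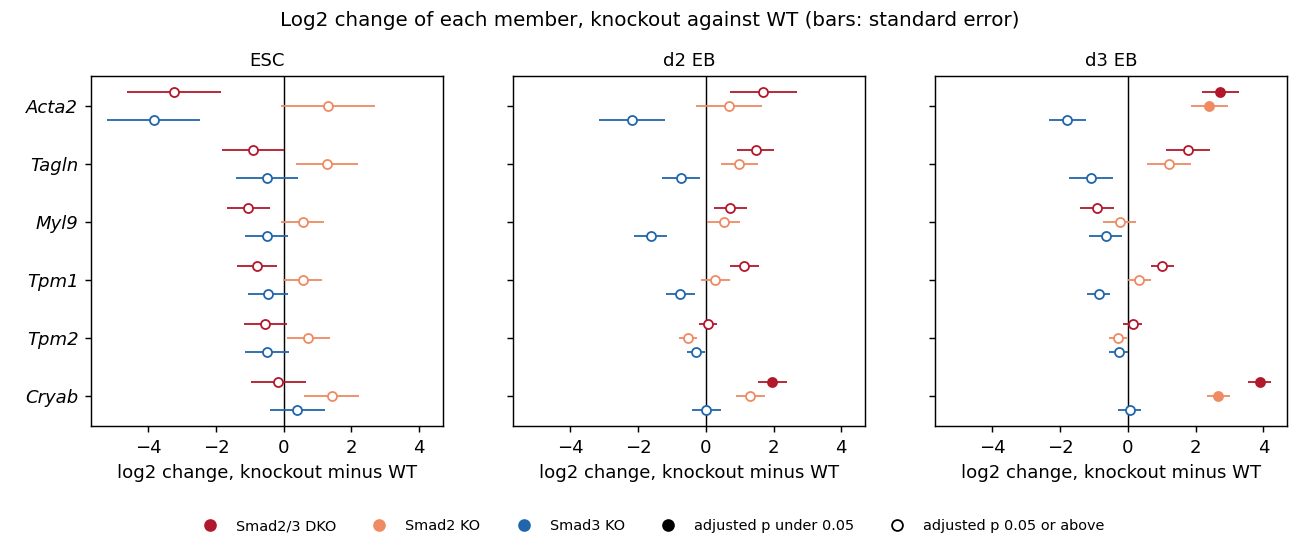
Log2 change of each tested member in Smad2/3 DKO, Smad2 KO and Smad3 KO against WT at each stage, with the standard error of the limma fit. Filled points have an adjusted p under 0.05, and they are Cryab in Smad2/3 DKO at d2 (1.97) and Acta2 and Cryab in Smad2/3 DKO and Smad2 KO at d3.

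Tagln and Tpm1, 2 further genes of the contractile filament, gave d3 values on the same side as Acta2. Tagln was 7.97, 9.26, 9.04 and 7.90 in Smad2/3 DKO, all detected, and 9.24, 9.07, 7.99 and 5.53 (doubted) in Smad2 KO. In Smad3 KO it was 5.23 to 6.05 without detection, and in WT 7.48, 5.91, 7.42 and 6.22, detected in the lines CCE and CCH. Every Smad2/3 DKO array was above every WT array, and the Smad2 KO group overlapped WT through the doubted array. The change was 1.79 ± 0.65 in Smad2/3 DKO (adjusted p = 0.0775) and 1.20 ± 0.65 in Smad2 KO (adjusted p = 0.395). In Smad3 KO it was -1.09 ± 0.65 (adjusted p = 0.371, but 0.0184 with array weights). The Smad2/3 DKO value without the doubted libraries was 1.79 (adjusted p = 0.00705) and that of Smad2 KO 2.01 (adjusted p = 0.0289). The Smad2/3 DKO comparison holds no doubted array itself, and without the doubted array in the fit its SE was 0.42.

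Tpm1, detected on all 45 arrays, was 13.59 to 13.87 in Smad2/3 DKO d3 EBs, 14.04, 13.46, 13.03 and 11.84 (doubted) in Smad2 KO, 11.72 to 12.07 in Smad3 KO and 12.27 to 13.29 in WT. The Smad2/3 DKO arrays lay above and the Smad3 KO arrays below all WT arrays. Against WT the changes were 1.02 ± 0.35 in Smad2/3 DKO (adjusted p = 0.0589) and -0.87 ± 0.35 in Smad3 KO (0.182, and 0.0416 without the doubted libraries). The Tpm1 call in Smad2/3 DKO was gained without the doubted libraries (adjusted p = 0.00558), with array weights (0.00517), with the replicate block (0.0366), without the WT line CCE (0.044), with averaged probes (0.0463) and without background correction (0.0466). The second Tpm1 probe gave 1.24 ± 0.40 in Smad2/3 DKO (adjusted p = 0.0494). Tpm2, the second tropomyosin gene, and Myl9 stood apart from this pattern. The largest d3 difference from WT was 0.29 in size for Tpm2 (-0.29 ± 0.27 in Smad2 KO) and -0.92 ± 0.50 for Myl9 (Smad2/3 DKO, adjusted p = 0.24), with overlapping groups in each case.

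**Figure D3:**
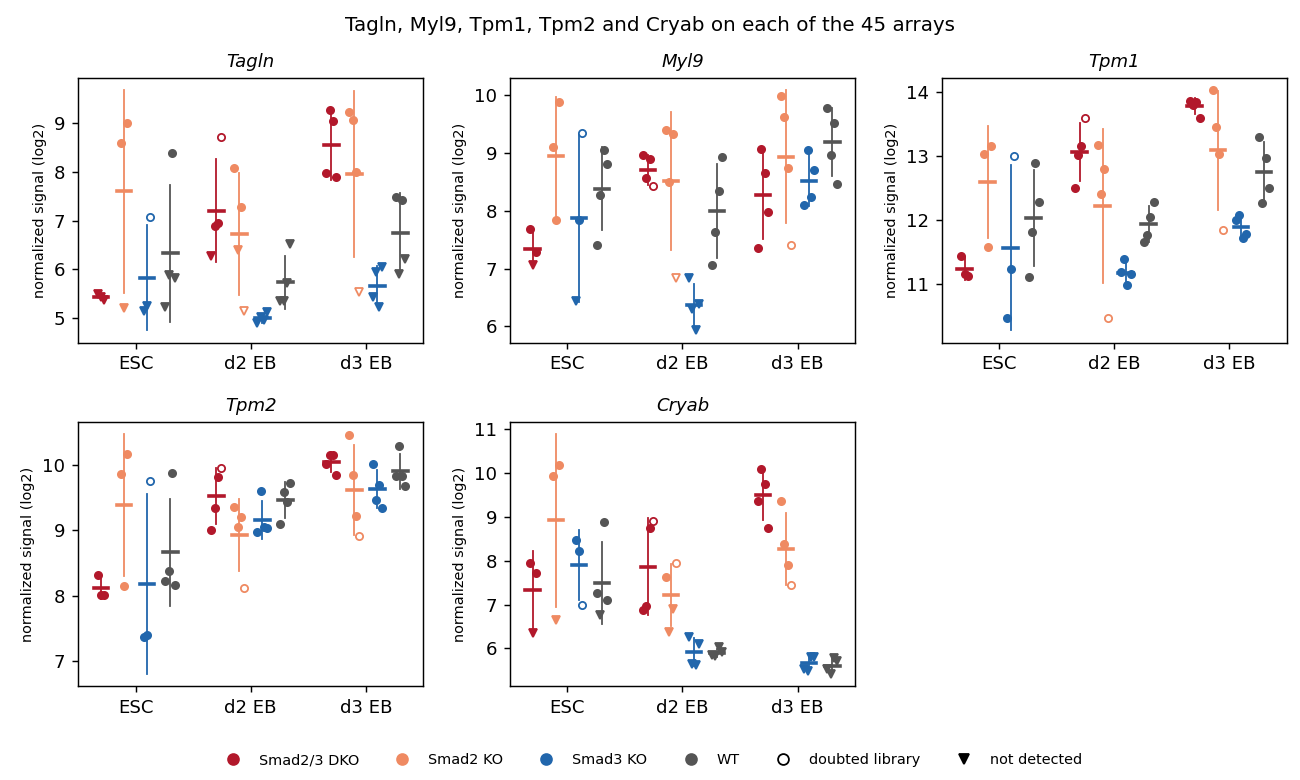
Normalized signal (log2) of Tagln, Myl9, Tpm1, Tpm2 and Cryab on each of the 45 arrays, drawn in the same way as the plot of Acta2, with a scale of its own for each gene. Cryab separates Smad2/3 DKO and Smad2 KO (7.44 to 10.09) from Smad3 KO and WT (5.41 to 5.81) at d3, and the open circles of the doubted libraries are often the extreme points of their group.

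The single knockouts were set against each other and against Smad2/3 DKO at d3. Smad2/3 DKO exceeded Smad3 KO in Acta2 by 4.52 ± 0.55 (adjusted p = 6.06e-05), in Tagln by 2.88 ± 0.65 (0.00659), in Tpm1 by 1.89 ± 0.35 (0.00154) and in Cryab by 3.84 ± 0.34 (3.19e-06). These 4 of 6 members rose where 9.29% of all genes did, and the 2 groups overlapped in none of them. The share of all genes whose groups do not overlap was not counted. No Smad3 KO array detected Tagln or Cryab, and against the lowest detectable signal they were at least 3.21-fold and 6.20-fold higher. Smad2 KO exceeded Smad3 KO in the same 4 genes, by 4.19 ± 0.55 in Acta2 (adjusted p = 0.000487), 2.29 ± 0.65 in Tagln (0.0341), 1.20 ± 0.35 in Tpm1 (0.0363) and 2.61 ± 0.34 in Cryab (0.000456), where 6.41% of genes rose. The bounds were at least 2.14-fold for Tagln and 2.66-fold for Cryab. Between these 2 genotypes the arrays overlapped in Tagln and Tpm1, through the doubted KT12 array, and not in Acta2 or Cryab. The Tagln and Tpm1 calls of Smad2 KO were lost with any single array left out other than KT12 (adjusted p up to 0.0963 and 0.0989) and with no filter (0.0862 and 0.082), that of Tpm1 also with all arrays in 1 fit (0.0845), while those of Acta2 and Cryab were kept with each array left out in turn. Between Smad2/3 DKO and Smad2 KO 0 of 6 members were called (4.83% of genes in either direction, 1 member at an unadjusted p under 0.05). Cryab came nearest, at 1.22 ± 0.34 (adjusted p = 0.0534, but 0.00619 without KT17 and 0.0275 without KT15.1F11), and Acta2 differed by 0.32 ± 0.55 (adjusted p = 0.808).

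At d2, Acta2 was 8.12, 8.47, 9.52 and 12.24 (doubted) in the Smad2/3 DKO clones KT15.1F6, KT15.2G9, KT15.1F11 and KT15.2D5, and 10.69, 9.09, 9.22 and 5.26 (doubted) in the Smad2 KO clones KT12, KT15, KT11 and KT17. In Smad3 KO it was 5.35 to 5.93 with no detection on 4 arrays, and the WT lines CCE, CCB, CCH and CCF gave 7.41, 7.37, 7.56 and 9.20. Both doubted arrays were the extreme values of their groups, and every Smad3 KO array was below every WT array. Against WT the Acta2 change was 1.70 ± 0.98 in Smad2/3 DKO (adjusted p = 0.509), 0.68 ± 0.98 in Smad2 KO (0.819) and -2.18 ± 0.98 in Smad3 KO (0.555). Without the doubted libraries the 3 values were 0.82 (adjusted p = 0.452), 1.78 (0.104) and -2.18 (0.0579). Tagln differed from WT by 1.47 ± 0.55 (adjusted p = 0.227) and Tpm1 by 1.13 ± 0.43 (0.234) in Smad2/3 DKO, and Cryab by 1.31 ± 0.44 (0.253) in Smad2 KO.

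Cryab was the 1 of 6 members that rose in Smad2/3 DKO d2 EBs against WT (1.97 ± 0.44, adjusted p = 0.0282, 1.74% of genes rose), with 6.87, 6.96, 8.75 and 8.90 (doubted) in Smad2/3 DKO against 5.82 to 6.02 without detection in WT. The rise was at least 2.15-fold over the lowest detectable signal. This call was lost without any 1 of the 4 WT lines, KT15.1F11 or KT15.2D5 (adjusted p up to 0.0898), with no filter (0.0857) and without background correction (0.0503). Without the doubted libraries Cryab and Tpm1 were called (2 of 6, where 3.05% of genes rose, adjusted p = 0.0348 and 0.0279). Among Smad2 KO and Smad3 KO d2 EBs, 0 of 6 members were called against WT (0.559% and 0.0207% of genes in either direction). At an unadjusted p under 0.05, 1 and 2 members passed in them, and 1163 and 862 of all genes.

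The knockouts were also set against each other at d2. Smad2/3 DKO exceeded Smad3 KO in 5 of 6 members, where 5.09% of all genes rose. The changes were 3.88 ± 0.98 for Acta2 (adjusted p = 0.0263), 2.20 ± 0.55 for Tagln (0.0249), 2.35 ± 0.48 for Myl9 (0.00941), 1.89 ± 0.43 for Tpm1 (0.0154) and 1.95 ± 0.44 for Cryab (0.0142), and the groups overlapped in none of these. Of these genes, no Smad3 KO array detected any other than Tpm1. The share of all genes whose groups do not overlap was not counted. Set against the lowest detectable signal, Acta2 was at least 5.88-fold, Myl9 at least 3.21-fold, Cryab at least 1.79-fold and Tagln at least 1.13-fold higher in Smad2/3 DKO. The Acta2 call was lost with no filter (0.0738), with the mean of its probes (0.0939), with the replicate number as a block (0.0541) and without any 1 of CCE.2H2, CCE.1H1, CCE.2B7, KT15.1F11 and KT15.2D5 (adjusted p up to 0.0768). That of Tagln was lost with no filter (0.0693) and without any 1 of CCE.2H2, CCE.1H1, CCE.2B7 and KT15.2D5 (up to 0.0727), and that of Tpm1 without KT15.2D5 (0.05005). Smad2 KO exceeded Smad3 KO in 1 of 6 members (1.69% of genes rose), Myl9, by 2.16 ± 0.48 (0.0377, at least 2.80-fold), a call lost with each array left out in turn apart from the doubted one, with no filter (0.0928), without background correction (0.0515) and with the replicate block (0.0659). The other changes over 1 log2 unit were 2.86 ± 0.98 for Acta2 (adjusted p = 0.154), 1.72 ± 0.55 for Tagln (0.128), 1.30 ± 0.44 for Cryab (0.145) and 1.04 ± 0.43 for Tpm1 (0.239). Without the doubted libraries 4 of 6 members were called, where 6.42% of genes rose, with Acta2 at 3.96 (adjusted p = 0.000458) and Tagln at 2.24 (0.00197). With KT17 alone left out 4 of 6 were called too, Acta2 at an adjusted p of 0.0076 and Tagln at 0.0149.

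Myl9, the myosin light chain gene, was at d2 8.43 to 8.97 in Smad2/3 DKO, 9.40, 8.49, 9.34 and 6.84 (doubted) in Smad2 KO, 5.93 to 6.84 in Smad3 KO and 7.06 to 8.93 in WT. No Smad3 KO array detected it at d2, whereas all 4 detected it at d3 (8.09 to 9.06). The Smad3 KO change from WT at d2 was -1.63 ± 0.48 (adjusted p = 0.461, and 0.0684 without the doubted libraries).

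The course from ESC to EB was followed in each genotype. In WT cells Acta2 was 7.37 to 9.20 at d2 and below all 4 ESC arrays (9.22 to 13.36), a fall by 3.19 ± 0.79 log2 units (adjusted p = 0.0101, 4 against 4 arrays). Cryab, on 3 of 4 WT ESC arrays detected (6.76 to 8.88) and on none at d2 or d3, fell at least 1.66-fold by d2 (adjusted p = 0.00426) and at least 1.77-fold by d3 (adjusted p = 0.00102). These were the 2 of 6 members that fell by d2, when 14% of all genes fell. By d3, Cryab was the 1 of 6 that fell (16.4% of genes) and Tpm2 the 1 of 6 that rose, by 1.24 ± 0.33 (adjusted p = 0.0106, 18.7% of genes). The 4 WT lines are the same at each stage, and a block on the line left each of these calls in place. Between d3 and d2 WT EBs 0 of 6 members were called (5.95% of genes, 2 members at an unadjusted p under 0.05), and Acta2 differed by 1.66 ± 0.79, higher at d3 in the lines CCE, CCB and CCH and lower in CCF. Myl9 differed by 1.19 ± 0.44 (adjusted p = 0.137) and Tagln by 1.02 ± 0.59 (0.372). From ESC to d3 the Acta2 change in WT was -1.53 ± 0.79 (adjusted p = 0.158, but 0.04998 without the ESC array of CCE).

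In Smad2/3 DKO cells contractile genes rose. Tagln, undetected on all 3 ESC arrays (5.37 to 5.49), rose by 1.77 ± 0.51 at d2 (adjusted p = 0.0328) and 3.11 ± 0.51 at d3 (0.00125), which was at least 1.13-fold at d2 and at least 2.86-fold at d3 over the lowest detectable signal. Tpm1 and Tpm2 rose by 1.83 ± 0.23 (adjusted p = 0.000324) and 1.41 ± 0.22 (0.00143) at d2 and by 2.54 ± 0.23 (3.81e-05) and 1.92 ± 0.22 (0.00015) at d3, and with Myl9 (1.37 ± 0.35, adjusted p = 0.019, at d2) 4 of 6 members rose by d2 (11% of genes). By d3, Acta2 rose by 4.44 ± 1.14 (adjusted p = 0.0155) and Cryab by 2.15 ± 0.57 (0.0183), and 5 of 6 members rose in all (14.6% of genes). No member fell by d2 or d3, and the Acta2 change by d2 was 1.75 ± 1.14 (adjusted p = 0.327). The calls of Acta2 and Cryab at d3 were lost with no filter (adjusted p = 0.0544 and 0.0586) and without the ESC array of KT15.1F6 (0.0738 and 0.0853), that of Acta2 also without the ESC array of KT15.2D5 (0.07). The Tagln and Myl9 calls at d2 were lost with no filter (0.0938 and 0.0532), with all arrays in 1 fit (0.118 and 0.113) and without the ESC array of KT15.1F6 (0.0859 and 0.0779) or KT15.2D5 (0.0999 and 0.067), that of Tagln also without KT15.2G9 (0.0798) and without background correction (0.0941). From d2 to d3 0 of 6 members were called (1.77% of genes, 5 members at an unadjusted p under 0.05). Acta2 changed by 2.69 ± 1.06 (adjusted p = 0.201), Cryab by 1.62 ± 0.53 (0.131, but 0.0355 with array weights) and Tagln by 1.34 ± 0.47 (0.155), and without the doubted d2 array 2 of 6, Tagln and Tpm1, rose (4.84% of genes).

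Smad3 KO and Smad2 KO cells gave fewer calls as labelled. In Smad3 KO, Cryab, detected on all 3 ESC arrays (7.00 to 8.48) and on no EB array, was the 1 of 6 members that fell, by 1.99 ± 0.32 at d2 (adjusted p = 0.0147, 1.25% of genes) and 2.24 ± 0.32 at d3 (adjusted p = 0.0107, 1.83% of genes), or at least 1.83-fold at d2 and 2.06-fold at d3. Both calls were lost with the replicate block (0.073 and 0.0621), and without the ESC array of CCE.1H1 or CCE.2E7 (adjusted p up to 0.0567 at d2 and 0.0512 at d3), that at d2 also without the d2 array of CCE.1H1 or CCE.2B7. From d2 to d3 0 of 6 were called in Smad3 KO (0.124% of genes, 2 members at an unadjusted p under 0.05), with Acta2 at 2.05 ± 0.57 (adjusted p = 0.182) and Myl9 at 2.16 ± 0.50 (0.128). From ESC to d2 Acta2 changed by -1.53 ± 0.62 (adjusted p = 0.199, but 0.0498 without the ESC array of CCE.1H1) and Myl9 by -1.52 ± 0.54 (0.158), and from ESC to d3 Tpm2 changed by 1.46 ± 0.49 (0.104). Without the doubted ESC array Tpm2 rose by d2 (1 of 6, 8.8% of genes) as Cryab fell (1 of 6, 9.15%). By d3, Myl9, Tpm1 and Tpm2 rose (3 of 6, 14.4% of genes) as Cryab fell (1 of 6, 10.9%), and Acta2 and Myl9 rose from d2 to d3 (2 of 6, 2.32%), a comparison that itself holds no doubted array. In Smad2 KO 0 of 6 members were called from ESC to d2, from d2 to d3 or from ESC to d3, where 0.207%, 0% and 0.155% of genes were called. At an unadjusted p under 0.05, 1, 1 and 0 members passed, and 1708, 971 and 2029 of all genes. Without the doubted arrays the count of members in Smad2 KO was again 0 in each. Acta2 changed in Smad2 KO by -3.82 ± 1.26 from ESC to d2 (adjusted p = 0.182, but 0.03 with all arrays in 1 fit and 0.0411 with array weights) and by 3.39 ± 1.16 from d2 to d3 (0.343, but 0.0482 with array weights). Cryab changed by -1.71 ± 0.79 to d2 (adjusted p = 0.302) and by 1.06 ± 0.73 from d2 to d3 (0.695), and Tagln by 1.23 ± 1.02 from d2 to d3 (0.768).

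**Figure D4:**
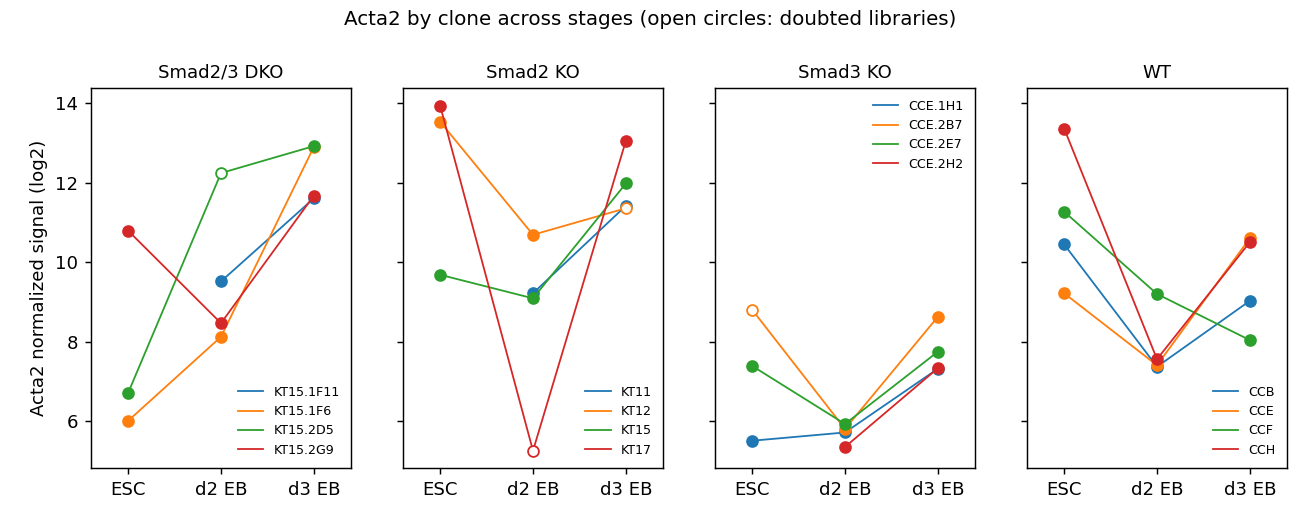
Normalized Acta2 signal (log2) of each clone or line at ESC, d2 and d3, in a panel per genotype. Lines join arrays of the same clone name, and open circles are doubted libraries. Acta2 is lower at d2 than in ESCs in all 4 WT lines, and the 3 Smad2/3 DKO clones with an ESC array are higher at d3 (11.67 to 12.92) than in ESCs.

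Clone by clone, Acta2 was higher at d3 than in ESCs in all 3 Smad2/3 DKO clones measured at both stages, by 0.88 (KT15.2G9), 6.20 (KT15.2D5) and 6.89 (KT15.1F6) log2 units. In Smad2 KO it was higher in KT15 (2.30) and lower in KT17 (-0.88) and KT12 (-2.18, doubted at d3). Among WT lines it was higher in CCE (1.39) and lower in CCB (-1.42), CCH (-2.86) and CCF (-3.23), so that Smad2 KO and WT held both directions. Smad3 KO clones were higher at d3 in CCE.1H1 (1.81) and CCE.2E7 (0.36), and CCE.2B7, doubted in ESCs, gave -0.18. The parent clone of all Smad2/3 DKO clones, KT15, was the lowest of the Smad2 KO ESC arrays in Acta2 (9.68), Tagln (5.21, not detected), Tpm1 (11.58) and Cryab (6.65, not detected). The other ESC arrays of the genotype, KT12 and KT17, had 8.58 and 9.01 for Tagln, 13.03 and 13.16 for Tpm1 and 9.93 and 10.19 for Cryab. The ESC array of KT15 detected 11338 probes, the fewest of the 45 arrays, against 13085 and 13021 on those of KT12 and KT17. By d3, KT15 was at 11.98 for Acta2, 9.07 for Tagln and 8.38 for Cryab, within the range of its Smad2/3 DKO derivatives for Acta2 and Tagln and below it for Cryab. Clone and genotype cannot be told apart for the derivatives of KT15, nor parent line and genotype for the Smad3 KO clones, all made from CCE. Among WT lines CCE was the lowest in Acta2 in ESCs (9.22) and the highest at d3 (10.60).

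The dependence of the Smad2/3 DKO effect on stage was tested over all 45 arrays, with no term for the clone. WT lines and Smad2/3 DKO clones recur between stages, and a clone block was not run for this test. The effect at d3 minus that in ESCs was 5.97 ± 1.52 log2 units for Acta2 (adjusted p = 0.0194) and 4.05 ± 0.81 for Cryab (adjusted p = 0.00241), 2 of 6 members, where 2.47% of genes gave a positive difference. The Acta2 call was lost without the ESC arrays of KT15.1F6 (0.0902), KT15.2D5 (0.076) or the WT line CCH (0.0555), and without the d3 array of CCF (0.0531). Without the doubted libraries 3 of 6 members, with Tpm1 at 1.80 (adjusted p = 0.00881), were called (5.19% of genes). As labelled, Tpm1 was at 1.80 ± 0.68 (adjusted p = 0.16) and Tagln at 2.69 ± 1.08 (0.195). The effect at d2 minus that in ESCs was called for 0 of 6 members (0.228% of genes), with 5 members at an unadjusted p under 0.05 and 676 of all genes. These were Acta2 (4.94 ± 1.52, adjusted p = 0.282), Tagln (2.37 ± 1.08, 0.717), Cryab (2.13 ± 0.81, 0.563), Tpm1 (1.91 ± 0.68, 0.471) and Myl9 (1.76 ± 0.82, 0.735).

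The members varied together within groups when the deviations of all 45 arrays were pooled. The SD of Acta2 around its group means was 1.53 log2 units, ranking 14 of 9666 genes from the top, against a median of 0.35 over all genes. That spread is what the set was selected on. The other members had within-group SDs of 1.08 (Tagln), 0.82 (Myl9), 0.81 (Cryab), 0.68 (Tpm1) and 0.60 (Tpm2). Over the 45 deviations from group means, the correlation with Acta2 was 0.811 for Tpm1, 0.784 for Tagln, 0.71 for Tpm2, 0.707 for Myl9 and 0.479 for Cryab, and the pair Tagln and Tpm1 stood at 0.87. Arrays of the same clone and the same RNA share library and group mean, so these are descriptions. Without the 4 doubted libraries the value for Cryab was 0.705 and those of the other members moved to between 0.689 and 0.832.

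**Figure D5:**
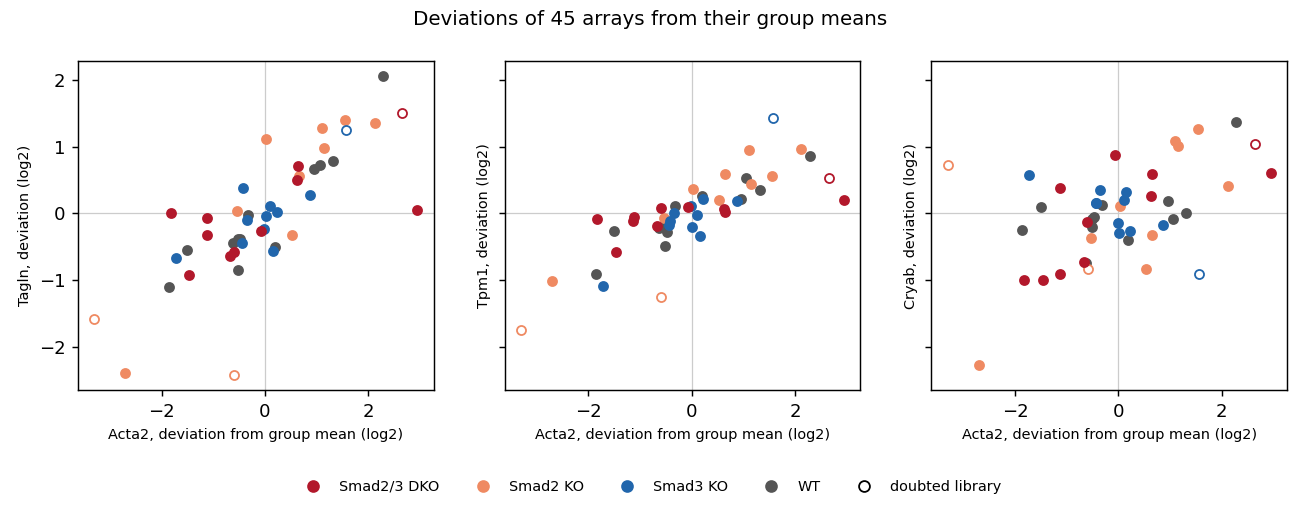
Deviation of Tagln, Tpm1 and Cryab from the group mean against that of Acta2 (log2), 1 point per array, coloured by genotype, with open circles for the doubted libraries. Over all 45 arrays pooled, Tagln and Tpm1 follow Acta2 (0.784 and 0.811), and Cryab does so less (0.479). No correlation was taken within a single genotype. In Smad2/3 DKO ESCs Tagln was undetected at 5.37 to 5.49 while Acta2 spanned 6.01 to 10.79.

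Outside the set, the genes whose signal followed Acta2 most closely over 45 arrays were Anxa3, an annexin (r = 0.9), the skeletal alpha-actin gene Acta1 (0.898), the matricellular gene Ccn1 (0.883), the galectin gene Lgals1 (0.866), Ankrd1 (0.851), the receptor kinase gene Axl (0.851), Ccn4 (0.844) and Fhl1 (0.828). Within groups, the closest were the keratin genes Krt18 (0.868) and Krt8 (0.805), Acta1 (0.847), Ccn1 (0.841), Igf2 (0.802), Bmp1 (0.799), Anxa3 (0.788) and the prion protein gene Prnp (0.787). Acta1, Ccn1 and Anxa3 were in both lists. Over all arrays Tagln ranked 7 and Tpm1 12 among all other genes by this measure, Myl9 94, Cryab 124 and Tpm2 505. No relation of function is drawn from these values.

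The 4 tested Acta2 probes changed in the same direction at d3. The other 3 had correlations of 0.893, 0.883 and 0.944 with the brightest over the 45 arrays, and at d3 they changed by 1.97 ± 0.43, 2.05 ± 0.50 and 2.78 ± 0.52 in Smad2/3 DKO against WT (adjusted p at most 0.0115). In Smad2 KO they changed by 1.51 ± 0.43, 1.61 ± 0.50 and 2.48 ± 0.52, and 1 of these 3 was called (adjusted p = 0.0231, the others 0.0835 and 0.112). From ESC to d3 in Smad2/3 DKO they changed by 1.87, 2.08 and 3.36 (limma, adjusted p = 0.0616, 0.0681 and 0.0246). The Smad2/3 DKO effect at d3 minus that in ESCs was 3.06, 3.44 and 4.98 on them (limma, adjusted p = 0.0546, 0.0546 and 0.0259). In both comparisons only 1 of these 3 was called, while the brightest probe was called. Where d2 Smad3 KO EBs entered a comparison, the same 3 probes gave smaller changes in size than the brightest. Smad3 KO differed from WT at d2 by -0.09, -0.06 and -0.42, against -2.18 on the brightest. From d2 to d3 Smad3 KO changed by 0.02, -0.07 and 0.42, against 2.05. Smad2/3 DKO exceeded Smad3 KO at d2 by 0.83, 0.74 and 1.68, none called by limma (adjusted p = 0.273, 0.437 and 0.167). The 2 remaining Acta2 probes were detected on no array. Cross-hybridization between the near-identical actin genes was not tested, and no level of one gene is set against that of another here.

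Lists of related genes, chosen with earlier results of these arrays known, were counted in d3 EBs of Smad2/3 DKO against WT, where 9.5% of all genes rose and 726 of 9666 fell. The counts below are small, and those of 1 gene in a list lie near that share. Of 5 tested other smooth muscle genes 2 rose, Fhl1 (1.68 ± 0.19, adjusted p = 3.81e-05) and Ppp1r14a, an inhibitor of myosin phosphatase (1.65 ± 0.47, 0.0261), with a median change of 0.57 against -0.03 over all genes. Of 4 small heat shock protein genes 2 rose, Hspb1 (1.88 ± 0.35, adjusted p = 0.00179) and Hspb2, the neighbour of Cryab on chromosome 9 (1.82 ± 0.20, 2.84e-05). Of 11 crosslinker and focal adhesion genes 3 rose, namely Csrp2 (1.18 ± 0.16), Pxn (1.15 ± 0.18) and Actn4 (0.83 ± 0.18), and of 6 other tropomyosin, calponin, transgelin and caldesmon genes 1, Tagln2 (1.47 ± 0.31, adjusted p = 0.0053). Of 8 cytoplasmic actin and non-muscle myosin genes 1 rose, Myh9 (0.88 ± 0.23, adjusted p = 0.0173). No gene fell in these 5 lists.

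Other lists moved in both directions. Of 10 sarcomere genes Myl4 rose (3.11 ± 0.63) and Myl7 fell (-2.07 ± 0.46). Of 6 SRF cofactor and early target genes Ankrd1 (1.81 ± 0.40) and Junb (1.72 ± 0.44) rose, and Egr2 (-1.32 ± 0.38) and Egr1 (-1.30 ± 0.39) fell. Genes were matched by symbol. The list held Ccn1 under its older symbol Cyr61, so that Ccn1 was not counted in it. Of 7 TGF-beta ligand, receptor and matrix target genes Tgfbi rose (2.39 ± 0.50) and Tgfbr3 fell (-1.60 ± 0.48). In Smad2 KO d3 EBs, where 2.31% of all genes rose and 70 fell, 5 genes of the same lists rose, namely Hspb1 (1.62 ± 0.35, adjusted p = 0.0238), Hspb2 (0.90 ± 0.20, 0.028), Csrp2 (0.76 ± 0.16), Fhl1 (0.76 ± 0.19) and Ankrd1 (2.16 ± 0.40, 0.0109), and Myl7 (-1.81 ± 0.46, 0.0499) and Tgfbr3 (-1.94 ± 0.48, 0.0452) fell. In Smad3 KO, where 77 of all genes fell, Fos (-2.10 ± 0.42, adjusted p = 0.0316), Myl7 (-2.03 ± 0.46) and Hspb8 (-1.75 ± 0.41) fell, and no gene of these 8 lists rose.

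Marker lists of other cell types were summed as linear signal on the d3 arrays. The sum of 8 trophoblast and epithelial genes, Krt8 and Krt18 included, was 43714 to 55153 on Smad2/3 DKO and 17282 to 40568 on Smad2 KO arrays. It was 3650 to 4639 on Smad3 KO and 4474 to 14579 on WT arrays. All 8 were detected on every Smad2/3 DKO array, and 6 of the 8 rose in Smad2/3 DKO against WT and 3 in Smad2 KO. The 7 naive ESC genes summed to 8319 to 14956 on Smad2/3 DKO, 6912 to 38478 on Smad2 KO (9191 at most without the doubted array), 3172 to 5296 on Smad3 KO and 3504 to 4680 on WT arrays. The 7 streak and mesoderm genes summed to 307 to 327, with none detected, on Smad2/3 DKO, 304 to 15802 on Smad2 KO, 532 to 4143 on Smad3 KO and 5811 to 28447 on WT arrays. Without the doubted array the Smad2 KO sums were 12029 to 15802, within the WT range. Of the fibroblast list 3 of 12 genes were tested, and Col1a1, Col1a2, Col3a1, Col5a2, Col6a1, Postn, Lum and Pdgfrb were detected on no array. The sum of the tested fibroblast genes, Dcn, Thy1 and Twist1, was 244 to 392 on Smad2/3 DKO and 642 to 801 on Smad2 KO arrays. It was 1062 to 1448 on Smad3 KO and 1009 to 1210 on WT arrays. Twist1 (-2.55 ± 0.37) and Thy1 (-1.66 ± 0.24) fell in Smad2/3 DKO, and Thy1 rose in Smad3 KO (1.08 ± 0.24). Of 7 cardiac markers Nkx2-5, Tbx5, Tbx20 and Nppa were detected on no array, while in Smad2/3 DKO Hand1 rose (2.96 ± 0.39) and Myl7 fell. Of 7 parietal and primitive endoderm genes Col4a2 (1.62 ± 0.29) and Sparc (1.42 ± 0.25) rose and Gata6, Sox17 and Pdgfra fell in Smad2/3 DKO. Of 6 primed epiblast genes 3 fell, Fgf5 by the most (-6.27 ± 0.56). The part of these cell types in the changes of Acta2, Tagln, Tpm1 and Cryab was not tested.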

How the data were processed

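Total RNA of 45 cultures was hybridised to Illumina MouseWG-6 v2.0 arrays. The authors deposited linear bead intensity with a detection p-value for each of 45281 probes, exported from GenomeStudio 2009.2, and a normalized log2 table (median 5.66) whose settings are not given in the sources used here. The series' value table equals it (largest difference 0). Per the study's methods, 3 ESC arrays were left out by the authors as outliers.

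Intensities were background-corrected, quantile-normalized and log2-transformed with neqc (limma 3.58.1, R 4.3.3, offset 16). Probes with a detection p under 0.01 on at least 3 of 45 arrays (16896) were tested with limma, Benjamini-Hochberg adjusted over all of them, and called at an adjusted p under 0.05. A gene is its brightest tested probe. Of all probes, 34885 carried 1 symbol, 18 several and 10378 none. Each stage was fitted with 4 genotype means, each genotype with 3 stage means, and stage dependence over all 45 arrays. "At least" folds set the higher group against the lowest detectable signal. The number of arrays limits the precision.

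The members and gene lists were chosen with earlier results of these data known. All members are named, and changes are described where called or over 1 log2 unit; from each list, called genes are named, up to 5 per comparison. Alternatives covered background correction, scaling, the authors' values, filters, probe averaging, 1 fit, array weights, blocks, and leaving out libraries. Of same-line WT pairs 3 of 12 correlated over 0.1 in their deviations (median -0.0304), of same-clone knockout pairs 17 of 30 (0.116) and of same-numbered WT and knockout pairs 7 of 33 (0.0083), so numbers were not taken to pair samples. On simulated data, 29.9%, 83.6% and 95.5% of 2-fold, 4-fold and 8-fold changes were recovered for the ESC Smad2/3 DKO comparison, and 35.8%, 86.6% and 97.0% for that at d3, each among 16896 probes. The simulated noise was independent between arrays, with each probe's own pooled SD and no clone structure. The members have within-group SDs of 0.60 to 1.53, against a median of 0.35 over all genes, so these rates do not apply to them. Promoter windows were searched on both strands with Python 3.11.15.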

Additional observations from a re-analysis of the deposited data

Results flagged for a closer look

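Among 54 groups of 4 arrays and a tested member, 3 held an array far from the others, where chance gives about 1 in 20. In d2 WT EBs Acta2 stood at 9.20 in the line CCF, against 7.37 to 7.56 in the other lines. In WT ESCs Tpm2 stood at 9.88 in CCH, against 8.16 to 8.38. In d2 Smad3 KO EBs Tpm2 stood at 9.59 in CCE.2E7, against 8.97 to 9.05. The Smad2/3 DKO effect differed between d3 and ESC by 5.97 log2 units for Acta2 and 4.05 for Cryab, 2 of 54 such tests of the members. Actg2, which entered no comparison, was detected on 1 array, that of Smad2 KO ESC clone KT17, at 6.97 log2 units, an array on which Acta2 was at 13.94.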

How the results depend on the processing

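None of the 83 changes of members that were called or over 1 log2 unit reversed under an alternative. Of all 168 changes, 10 changed sign without the doubted libraries, all uncalled and at most 0.59 in size, such as Tagln in Smad2/3 DKO against Smad2 KO at d3 (0.59, and -0.22 without them) and Myl9 in Smad2 KO against WT at d3 (-0.25 and 0.27). The stricter filter and the clone block moved no count of called members by over 1.5 times. Counts that did move are given by setting. Without the doubted libraries they were 4 (Smad2/3 DKO against WT, d3), 2 (the same at d2), 1 (Smad3 KO against WT, d3), 4 (Smad2 KO against Smad3 KO, d2), 2 (Smad3 KO, d2 against ESC), 4 (d3 against ESC), 2 (d3 against d2) and 2 (Smad2/3 DKO, d3 against d2). With array weights they were 4 (Smad2/3 DKO against WT, d3), 1 (Smad2/3 DKO against Smad2 KO, d3), 1 (Smad2 KO against WT, d2), 3 (Smad3 KO against WT, d2), 3 (the same at d3), 5 (Smad2 KO against Smad3 KO, d2), 3 (Smad2/3 DKO, d3 against d2), 1 (Smad2 KO, d2 against ESC), 1 (d3 against d2), 2 (Smad3 KO, d2 against ESC), 2 (d3 against ESC), 2 (d3 against d2) and 1 (WT, d3 against d2). With no filter they were 0 (Smad2/3 DKO against WT, d2), 1 (Smad2 KO against WT, d3), 3 (Smad2/3 DKO against Smad3 KO, d2), 0 and 2 (Smad2 KO against Smad3 KO, d2 and d3), 2 and 3 (Smad2/3 DKO, d2 and d3 against ESC). With all arrays in 1 fit they were 1 (Smad2/3 DKO against WT, d3), 1 (Smad2 KO against WT, d3), 2 (Smad2/3 DKO, d2 against ESC), 1 (Smad2 KO, d2 against ESC) and 2 (Smad3 KO, d3 against ESC). Without background correction they were 0 (Smad2/3 DKO against WT, d2), 1 (Smad2/3 DKO against Smad2 KO, d3) and 0 (Smad2 KO against Smad3 KO, d2). Median scaling gave 1 (Smad3 KO against WT, d3) and 4 (WT, d3 against ESC), averaged probes 1 (Smad2/3 DKO against Smad2 KO, d3), and the authors' values 2 (Smad2 KO against Smad3 KO, d2). With the replicate block the counts were 0 (Smad2 KO against Smad3 KO, d2) and 0 (Smad3 KO, d2 and d3 against ESC), and the other 23 stayed within 1.5 times. The causes were not tested. Leaving out 1 library gave 2 to 3 called members (Smad2/3 DKO against WT, d3), 0 to 1 (the same at d2), 1 to 3 (Smad2 KO against WT, d3), 2 to 5 and 4 to 4 (Smad2/3 DKO against Smad3 KO, d2 and d3), 0 to 4 and 2 to 4 (Smad2 KO against Smad3 KO, d2 and d3), 0 to 1 (Smad2/3 DKO against Smad2 KO, d3), 2 to 4, 0 to 2 and 3 to 6 (Smad2/3 DKO, d2 against ESC, d3 against d2 and d3 against ESC), 0 to 2 and 0 to 4 (Smad3 KO, d2 and d3 against ESC), 2 to 3 (WT, d2 and d3 against ESC) and 1 to 2 (stage dependence at d3), and 0 in the others. Of 736 single changes so recomputed, 59 lost and 11 gained a call. Signal over background limits Tagln and Cryab most among the tested members, since they were detected on 18 and 24 of 45 arrays.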
